A study of Mus musculus with 3 samples.

Results

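The genes described are 7 cytokine mRNA decay factors, *Zfp36*, *Zfp36l1*, *Zfp36l2*, *Zc3h12a*, *Zc3h12c*, *Rc3h1* and *N4bp1*, chosen by symbol from the 32285 genes counted. Their mRNAs were measured in murine bone marrow derived macrophages (BMDMs), cells grown from the bone marrow of female C3H/HeN mice of 6 to 8 weeks in medium conditioned by L929 cells. The question was how macrophages respond to lipoproteins of *Borrelia burgdorferi*, the bacterium of Lyme disease. UI cells, the control, received PBS and were collected at 4 h, LP1 cells received 1 µg/mL of purified lipoproteins (*Bb*LP) for 1 h, and LP4 cells received the same dose for 4 h. Each group is 1 single-cell library in which the cells of 3 wells were pooled, so no group has a replicate, no test between groups was possible, and the spread between cultures or animals was not measured. LP1 also differs from the other libraries in its time of collection.

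Inflammatory mRNAs of macrophages are made in bursts and removed by proteins that read signals in their 3′ untranslated regions (3′ UTRs). *Zfp36* encodes tristetraprolin, which with its paralogs from *Zfp36l1* and *Zfp36l2* binds AU-rich elements through zinc fingers and recruits enzymes that shorten the poly(A) tail. *Zc3h12a* and *Zc3h12c* encode Regnase-1 and Regnase-3, endonucleases, and *Rc3h1* encodes Roquin-1, which binds stem-loops of such mRNAs. *N4bp1* encodes a protein with a nuclease fold related to that of the Regnases, which restrains NF-κB signaling and is cut by caspase-8.

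The letters that these factors read are shown for the mRNAs on which the comparisons turn. They come from the GENCODE vM21 transcript with the longest 3′ UTR of each gene, on mouse build GRCm38 (mm10), written 5′ to 3′ in the sense of the mRNA with T for U. The AU-rich nonamer TTATTTATT, the core of a tristetraprolin site, is in capitals. The 3 *Zfp36* family mRNAs carried 1 nonamer each and *Rc3h1* carried 1, while those of *Zc3h12a*, *Zc3h12c* and *N4bp1* carried none. Thus 4 of the 7 mRNAs had a nonamer, beside 8.20% of the 7905 compared genes with an annotated 3′ UTR. These 4 had 3′ UTRs of 774 (*Zfp36*), 1835 (*Zfp36l1*), 1822 (*Zfp36l2*) and 7181 bases (*Rc3h1*), and the rest of the 7 had 856 to 4062. The median of the compared genes was 1238 bases. This share and that of hairpins below were not matched for length. *Tnf*, the mRNA of tumor necrosis factor and the best known target, had 5, of which the window holds 4.
Zfp36 (chr7:28376950-28376979, minus strand): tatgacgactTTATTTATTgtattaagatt
Zfp36l1 (chr12:80108166-80108195, minus strand): aactgttggaTTATTTATTttagaaattct
Zfp36l2 (chr17:84184913-84184942, minus strand): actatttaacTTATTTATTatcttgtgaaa
Rc3h1 (chr1:160970043-160970072, plus strand): actttactcaTTATTTATTgagatgaggag
Tnf (chr17:35199679-35199708, minus strand): aTTATTTATTATTTATTTATTATTTATTta
Cxcl3 (chr5:90787867-90787896, plus strand): ttatcagttgTTATTTATTgaaatggtctt

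A signal read by Roquin is the constitutive decay element, a small hairpin with a loop of 3 bases. It was searched as its core with 3 further base pairs below it, G with T allowed as a pair, and the hairpin is in capitals. *Rc3h1* itself held 2 such hairpins, of which the 1 not shown relied on pairs of G with T. None of the other 6 decay factors held one of this form. The search finds this strict form only, and *Il6*, *Icos* and *Tnfrsf4*, listed as targets of Regnase-1 or Roquin-1, also held none. Of all compared genes with a 3′ UTR, 0.810% held one. *Nfkbid* and *Nfkbiz*, which encode atypical IκB proteins, held 2 and 1, and *Tnf* held 1. A match of letters is a description and does not show binding, and the lack of one does not show that a signal is absent.
Rc3h1 (chr1:160971653-160971682, plus strand): agccaatAACTTCTGTGAAGTTgccttttc
Tnf (chr17:35199577-35199606, minus strand): cagacatGTTTTCTGTGAAAACggagctga
Nfkbid (chr7:30428395-30428424, plus strand): tctaggtGATTTCTGTGAAATCgagcccac
Nfkbiz (chr16:55812606-55812635, minus strand): tgtaagtTGTTTCTATGAAACAaacccatt

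The authors counted unique molecular identifiers (UMIs, 1 for each captured RNA molecule) in 3′ end libraries. After limits on UMIs, genes and mitochondrial share that the study states, 4670 to 6071 cells and 35688939 to 61402275 UMIs per library remained, with a median of 5133 (UI), 9343 (LP1) and 11784 (LP4) UMIs per cell. Levels are a gene's share of all UMIs of a library, per 1000000 UMIs (CPM), and carry Poisson intervals. Differences between libraries are log2 ratios of these levels, with intervals from the exact binomial of both counts. All intervals are at 95% and cover counting error only. CPM is a share of all UMIs, and in LP4 more UMIs per cell were read of every decay factor than in UI. More RNA per cell and deeper sequencing cannot be told apart here. The 8 macrophage markers, *Lyz2*, *Cd68*, *Csf1r* and *Adgre1* among them, were present in every library and summed to 10570 to 11693 CPM. The 9 neutrophil markers summed to 276 to 522 CPM, highest in LP4. Most of that sum was *S100a8*, at 179 (UI), 98.3 (LP1) and 197 (LP4) CPM, and *S100a9*, at 139, 128.5 and 264. *Ngp* and *Camp* were also highest in LP4, *Ltf* and *Mpo* were highest in UI, and *Ly6g*, *Retnlg* and *Elane* were lowest in LP4. The 6 dendritic cell markers summed to 14.4 to 15.9 CPM, of which *H2-Ab1* made up 11.3, 12.6 and 13.4. The 4 B cell and 3 T cell markers summed to at most 2.89 CPM each as a list, with 1 of 4 and 1 to 2 of 3 at 0. Stromal markers, 5 in number, summed to 3.05 CPM in UI and 16.7 in LP4. Without the 67 to 96 cells per library that held these markers, the counts of decay factors past 1.5-fold given below were equal.

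At 1 h, *Zfp36* alone among the 7 was higher by at least 1.5-fold, and none was lower. At 4 h, *Zfp36*, *N4bp1*, *Rc3h1* and *Zc3h12a* were higher than in UI by at least that fold and *Zc3h12c* was lower, with *Zfp36l1* and *Zfp36l2* between. In LP4 over LP1, 4 were higher and 1 was lower, by name as in LP4 over UI. The call for *Zc3h12c* in LP4 over UI was lost under 2 other scalings, given with its values. Of 8103 genes that reached 10 CPM in any library, 4.23% were called higher and 2.83% lower by this fold in LP1 over UI, 20.0% and 23.1% in LP4 over UI, and 16.3% and 18.5% in LP4 over LP1. The median log2 ratio of the 7 was 0.11, 0.68 and 0.69 in these comparisons, and that of all 8103 genes was -0.02, -0.08 and -0.07. All 7 reached the minimum in every library.

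**Figure D1:**
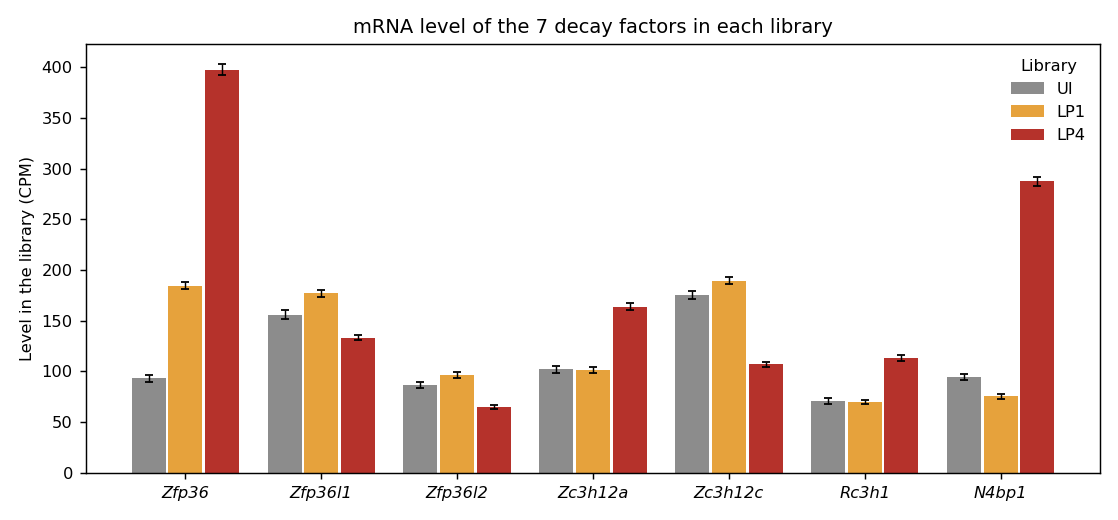
Level of each decay factor (CPM, bars from 0) in the UI, LP1 and LP4 libraries, with exact Poisson 95% intervals that cover counting error only. *Zfp36* stood at 93.2, 184.5 and 398 CPM, *N4bp1* at 94.3, 75.3 and 287, and *Zc3h12c* at 175, 189 and 107.

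*Zfp36* (ENSMUSG00000044786, chr7:28376784-28380253, minus strand) stood at 93.2 CPM in UI, 184.5 in LP1 and 398 in LP4. Each library lay above the one before it in time of exposure, and no intervals overlapped. The log2 ratio was 0.99 (0.93 to 1.04) in LP1 over UI, or 1.98-fold, and 2.09 (2.04 to 2.15) in LP4 over UI, or 4.27-fold. Its ratio at 1 h exceeded those of 99.1% of the 8103 genes, and its ratio at 4 h those of 97.3%. In the 250 bases before and 50 after the RefSeq start site (GRCm38.p6), a script found 1 serum response element, a site of immediate early genes that 1.63% of 32851 promoter windows held. It found 1 Egr site (GCGGGGGCG or GCGTGGGCG, 3.47% of windows) and 1 STAT-type site (TTCNNNGAA, 8.30%), on either strand. Of the other 5 decay factors with a window, *Zc3h12c*, lower at 4 h, held the 1 NF-κB match (8.46% of windows), *Rc3h1* held 1 AP-1 match (TGACTCA or TGAGTCA, 5.202%) and *Zfp36l1* held 1 TATAAA (13.6%). *Zc3h12a* and *N4bp1*, both higher at 4 h, held none of the motifs searched. These are matches of letters and show nothing about a factor.

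*Zfp36l1* (ENSMUSG00000021127, chr12:80107754-80113013, minus strand) was at 156 CPM in UI, 177 in LP1 and 133 in LP4, and *Zfp36l2* (ENSMUSG00000045817, chr17:84183931-84187947, minus strand) at 86.7, 96.5 and 65.2. Both were highest at 1 h and lowest at 4 h, with no overlap of counting intervals, and both stayed under 1.5-fold from UI. For *Zfp36l1* the log2 ratio was 0.18 (0.13 to 0.23) in LP1 over UI and -0.23 (-0.27 to -0.18) in LP4 over UI. For *Zfp36l2* it was 0.15 (0.09 to 0.22) and -0.41 (-0.48 to -0.34). Under another scaling that centres on the median gene, *Zfp36l1* in LP4 over UI moved to -0.02 and *Zfp36l2* to -0.21. An annotated antisense gene overlaps each of *Zfp36* and *Zfp36l2* and was counted apart.

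The make-up of the family differed between libraries. *Zfp36* made up 27.7% (26.9 to 28.5) of the family's UMIs in UI, 40.3% (39.7 to 40.9) in LP1 and 66.7% (66.2 to 67.2) in LP4. The share of *Zfp36l1* was 46.5%, 38.7% and 22.4%, and that of *Zfp36l2* 25.8%, 21.1% and 10.9%. The leading member was *Zfp36l1* in UI, *Zfp36* and *Zfp36l1* lay close together in LP1, and *Zfp36* led in LP4. The summed level was 336, 458 and 596 CPM. These are shares of UMIs and were not scaled by length. Capture can differ between genes, and whether intronic reads were counted is not given.

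*Zc3h12a* (ENSMUSG00000042677, chr4:125118423-125127840, minus strand) was at 102 CPM in UI, 101 in LP1 and 164 in LP4. UI and LP1 did not differ beyond counting error, at a log2 ratio of -0.01 (-0.07 to 0.05), and LP4 lay above both. In LP4 over UI the ratio was 0.68 (0.63 to 0.74), or 1.60-fold. *Zc3h12c* (ENSMUSG00000035164, chr9:52111344-52168572, minus strand) took the opposite course, at 175, 189 and 107 CPM. Its log2 ratio was 0.11 (0.07 to 0.16) in LP1 over UI and -0.71 (-0.76 to -0.66) in LP4 over UI, or 1.64-fold lower. Under the 2 scalings that centre on most genes, TMM and the median of ratios, it was no longer 1.5-fold lower. The sum of this pair of mRNAs was 278, 291 and 271 CPM, so the sum differed less between libraries than either gene, while *Zc3h12a* made up 36.8%, 34.9% and 60.5% of it. *Zc3h12d*, a further Regnase gene at 21.8, 22.6 and 59.0 CPM, is not in this sum.

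*Rc3h1* (ENSMUSG00000040423, chr1:160906418-160974978, plus strand) was at 70.7 CPM in UI, 69.7 in LP1 and 113 in LP4. As for *Zc3h12a*, UI and LP1 could not be told apart at this depth, with a ratio of -0.02 (-0.09 to 0.05), and LP4 was 1.61-fold above UI at 0.68 (0.62 to 0.75). The pair lay within 0.00903 of each other in the plane of both log2 ratios, and each was among the 3 nearest genes of the other out of 3647 candidates with at least 50 CPM in 1 library.

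*N4bp1* (ENSMUSG00000031652, chr8:86808160-86885258, minus strand) was at 94.3 CPM in UI, 75.3 in LP1 and 287 in LP4. It was the only one of the 7 whose LP1 level lay below UI beyond counting error, at a log2 ratio of -0.32 (-0.39 to -0.26). In LP4 it was above UI by 1.61 (1.55 to 1.66), or 3.05-fold, and above LP1 by 1.93 (1.88 to 1.98), or 3.81-fold. No other decay factor had as large a ratio of LP4 to LP1.

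**Figure D2:**
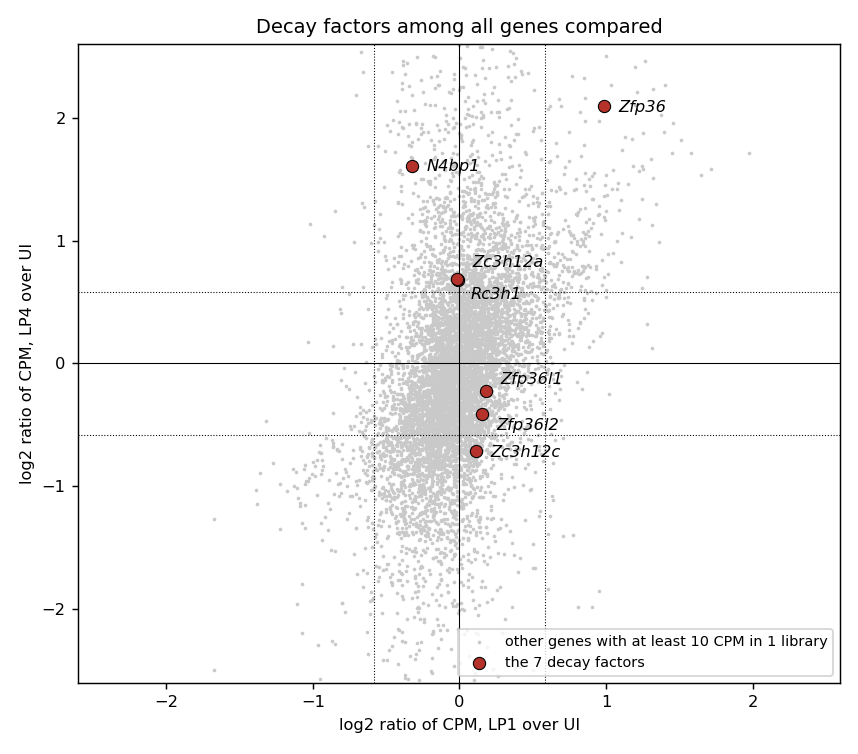
Log2 ratio of CPM in LP1 over UI (x) against LP4 over UI (y) for the 7 decay factors (red) and for the other genes that reached 10 CPM (grey), with dotted lines at 1.5-fold. *Zfp36* is displaced on both axes, *N4bp1*, *Zc3h12a* and *Rc3h1* lie up and *Zc3h12c* down on the 4 h axis, and 201 genes fall outside the axes. Both ratios share the UI library.

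The genes nearest to each decay factor in this plane were named by a fixed rule, over 3 libraries. Those of *Zfp36* were *Bcl2a1d*, *Cd14* and *Lgmn*, at distances of 0.169 to 0.215, of which *Cd14*, the co-receptor of Toll-like receptors, was at 291, 597 and 1399 CPM. Those of *N4bp1* were *Spata13*, *Clec2d* and *Bcl3*, the last an atypical IκB protein, at 46.7, 35.2 and 139 CPM. *Pik3ap1* and *Hipk3* were near *Zc3h12a*, and *Brd2* and *Hipk3* near *Rc3h1*. *Map4k3*, *Rasa1* and *Pcnx* were near *Zc3h12c*. *Ccny*, *Fam172a* and *Itga6* were nearest to *Zfp36l1*, and *Bax*, *Rgs10* and *Naca* to *Zfp36l2*. With 3 libraries many genes share a course, and distances are a description.

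Shares of cells with a UMI were taken at an equal depth of 2000 UMIs drawn from each cell, and 13 to 122 shallower cells per library were not used. A *Zfp36* UMI was seen in 17.9% of UI cells (exact binomial 16.9 to 18.9), 32.2% of LP1 cells (30.9 to 33.5) and 52.5% of LP4 cells (51.1 to 54.0). For *N4bp1* the shares were 16.3%, 13.6% and 43.2%, and for *Zc3h12c* 28.5%, 30.2% and 17.9%. Unthinned, *Zfp36* was seen in 39.5%, 78.0% and 90.8% of cells and *N4bp1* in 35.7%, 44.7% and 91.2%.

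*Zc3h12a* was seen at the fixed depth in 17.9%, 18.4% and 26.9% of cells and *Rc3h1* in 12.9%, 12.9% and 21.0%. *Zfp36l1* was seen in 24.4%, 26.5% and 19.4%, and *Zfp36l2* in 15.4%, 17.0% and 10.2%. No cell type of these cultures is known to lack all 7 genes. Free RNA was therefore looked at through *S100a8*, a neutrophil gene. It had a UMI in 4.37%, 3.11% and 4.95% of all cells at the same depth, and all shares of the 7 lay above that. Free RNA of a gene follows that gene's own level, so this sets no floor for the 7. Cells with at least 20 neutrophil marker UMIs numbered 23 (UI), 20 (LP1) and 30 (LP4) at this depth. *Zfp36l1* was seen in 0%, 0% and 6.67% of them, *Zc3h12c* in 4.35%, 5% and 13.3%, and *N4bp1* in 43.5%, 35% and 60%. A cell of UI showed 1.33 of the 7 mRNAs on average, a cell of LP1 1.51 and a cell of LP4 1.91, and 24.9%, 19.1% and 10.1% of cells showed none.

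**Figure D3:**
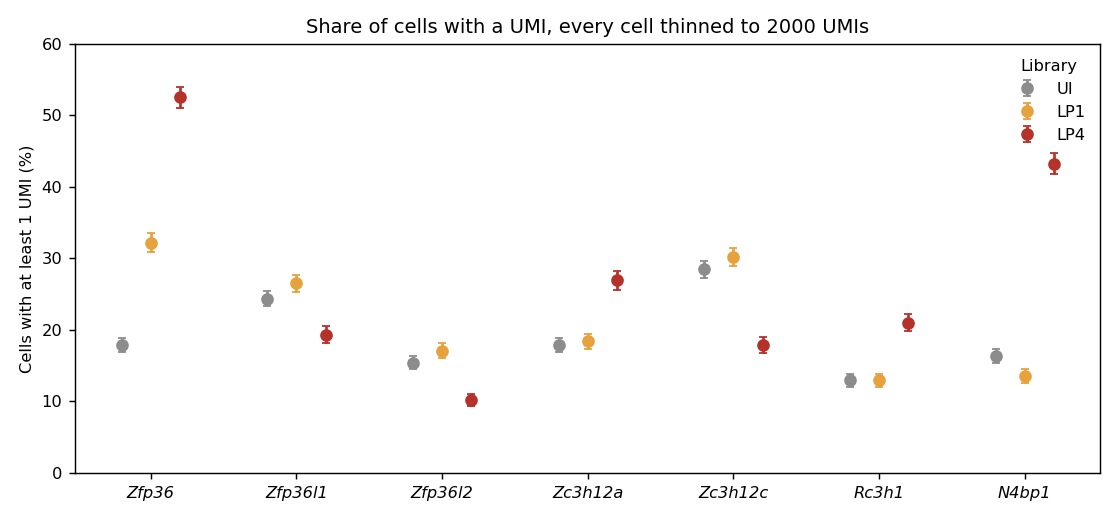
Share of cells (%) with at least 1 UMI of each decay factor in UI, LP1 and LP4, after thinning every cell to 2000 UMIs, with exact binomial 95% intervals. LP4 is highest for *Zfp36* (52.5%), *N4bp1* (43.2%), *Zc3h12a* (26.9%) and *Rc3h1* (21.0%) and lowest for *Zfp36l1*, *Zfp36l2* and *Zc3h12c*.

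The spread between cells was described by the Fano factor, the variance of UMIs over their mean, which is 1 for random sampling of an even level. At the fixed depth it was 1.72 (UI), 1.95 (LP1) and 2.30 (LP4) for *Zfp36l1*. Every decay factor lay above 1 in every library, by differing amounts. *Zc3h12c* stood at 1.32, 1.29 and 1.27, *N4bp1* at 1.21, 1.16 and 1.11, and *Zfp36* at 1.06, 1.08 and 1.42. *Zfp36l2* stood at 1.08 in UI and LP1 and at 1.93 in LP4. In LP4 fewer cells showed it than in UI, while 2.66% of cells had at least 2 UMIs, beside 1.53% in UI. Without thinning it was seen in 36.0% of UI, 54.8% of LP1 and 30.4% of LP4 cells, while its mean was 0.510, 1.00 and 0.857 UMIs per cell. *Rc3h1* stayed between 1.03 and 1.08 and *Zc3h12a* between 1.05 and 1.14, and a low mean draws this measure toward 1.

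To describe where the uneven mRNAs were, cells were gated by genes that are no decay factors. The study had named these genes for macrophage subsets in the same data, and it listed *Zfp36l1* together with *Slc9a9* and *Selenop*. A higher *Zfp36l1* in the Apoe gate was thus known when the gate was chosen, and is a description only. The Apoe gate held the cells in the top 25% of each library for the summed share of *Apoe*, *Selenop* and *Slc9a9*. The Fgf13 gate held the top 25% for *Fgf13*, *Ccnd1* and *Lpl*. Cells in both were left out, which gave 1445, 1203 and 1114 cells per gate in UI, LP1 and LP4. The gates are ranges of a score, not types, and were ranked anew in each library on genes whose own levels differed. The Apoe set summed to 1112, 867 and 808 CPM, with *Slc9a9* at 224 in UI and 44.5 in LP4, where *Selenop* made up 582 of the sum. The Fgf13 set summed to 2522, 3143 and 2402 CPM, most of it *Lpl* in every library, at 2080, 2573 and 2252. *Fgf13* itself was at 337 in UI and 79.8 in LP4. A gate in LP4 therefore need not hold the same kind of cell as the gate of that name in UI. Cells of the Apoe gate were shallower, with medians of 4123 against 5925 UMIs in UI and 9174.5 against 13530 in LP4.

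*Zfp36l1* was at 373 CPM in the Apoe gate and 57.3 in the Fgf13 gate of UI, a log2 difference of 2.70 (2.57 to 2.84). In LP1 it was at 450 and 78.2 CPM, and in LP4 at 298 and 60.5 CPM. The Apoe gate was above the Fgf13 gate in each library, by 2.52 in LP1 and 2.30 in LP4. Within the shallower and the deeper cells of each library taken alone, the difference was 1.76 to 2.91. *N4bp1* and *Zfp36* were also higher in the Apoe gate of each library, by 1.18, 1.17 and 0.70 for *N4bp1* and by 0.98, 0.64 and 0.53 for *Zfp36*.

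*Zfp36l2* differed from these. It was at 84.8 CPM in the Apoe gate and 87.1 in the Fgf13 gate of UI, and at 99.8 and 90.2 in LP1, so that the gates were close to each other. In LP4 it was at 105 CPM in the Apoe gate and 35.4 in the Fgf13 gate, a log2 difference of 1.57 (1.43 to 1.72), and 1.66 in shallower and 1.46 in deeper cells. LP4 over UI was 0.31 in the Apoe gate and -1.30 in the Fgf13 gate, beside -0.41 in all cells, and a different level within cells and different cells in a gate cannot be told apart.

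*Zc3h12c* was at 270 CPM in the Apoe gate of UI, 283 in LP1 and 114 in LP4. In the Fgf13 gate it was at 144, 162 and 126 CPM. LP4 over UI was -1.24 in the Apoe gate and -0.20 in the Fgf13 gate, a larger difference in the gate where UI cells held more of it. In deeper LP4 cells the Apoe gate lay below the Fgf13 gate, at -0.25 (-0.40 to -0.11). In shallower LP4 cells the interval held 0, at 0.17 (-0.01 to 0.35). *Zc3h12a* and *Rc3h1* differed by at most 0.35 between gates in any library when cells of all depths were pooled, and *Zc3h12a* differed by 0.46 (0.28 to 0.63) in the deeper cells of UI. With 1 library per group, none of these differences between gates was tested.

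**Figure D4:**
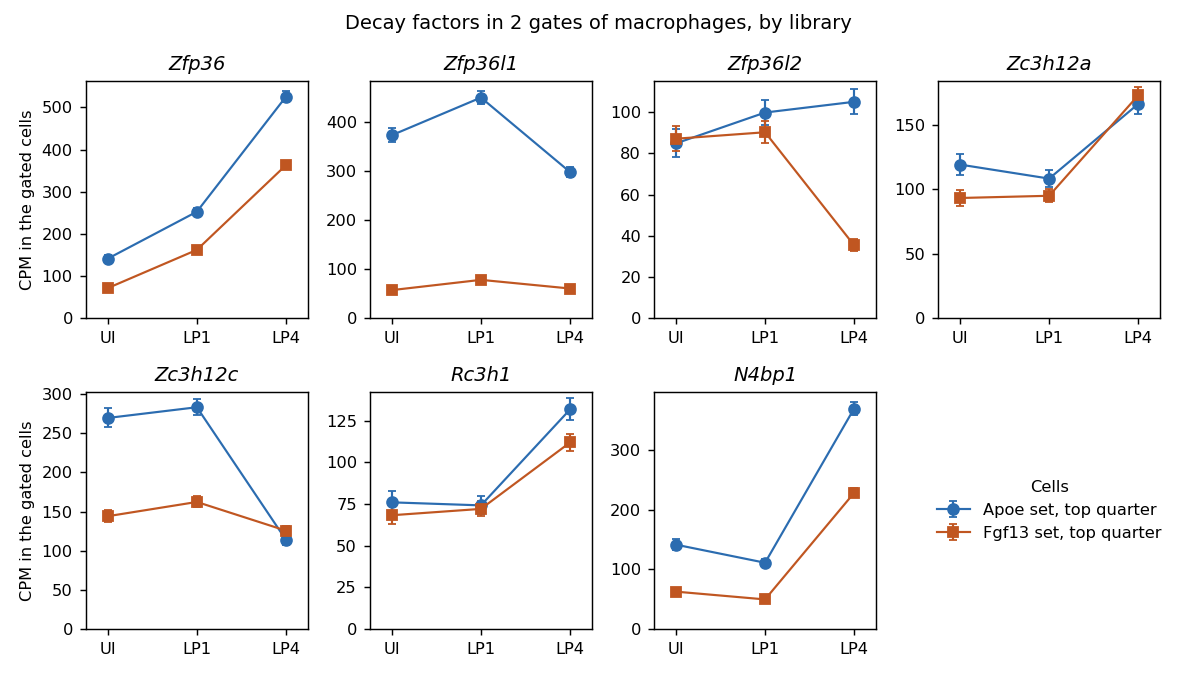
Level (CPM, with exact Poisson 95% intervals) of each decay factor in cells of the Apoe gate (blue circles) and the Fgf13 gate (orange squares) of the UI, LP1 and LP4 libraries. *Zfp36l1* is higher in the Apoe gate throughout (373 against 57.3 CPM in UI), the *Zfp36l2* lines part in LP4 (105 against 35.4 CPM), and the *Zc3h12c* lines meet there. Lines join libraries for reading and are no time course of the same cells.

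*Zfp36*, *N4bp1*, *Zc3h12a* and *Rc3h1* were higher in LP4 than in UI in every large class examined: cycling and other cells, shallower and deeper cells, cells of lower and higher mitochondrial share, both gates and the cells in neither. The log2 ratio ranged from 1.89 to 2.35 for *Zfp36*, from 1.37 to 1.87 for *N4bp1*, from 0.48 to 1.03 for *Zc3h12a* and from 0.62 to 0.79 for *Rc3h1*. The few cells with markers of other cell types, 67 in UI and 96 in LP4, were less uniform. Of them, 27 in UI and 52 in LP4 were called by the dendritic list, most of whose CPM was *H2-Ab1*. Over all of these few cells the ratio was 2.26 for *Zfp36* and 0.66 for *N4bp1*. It was 0.15 (-0.33 to 0.66) for *Zc3h12a* and -0.10 (-0.69 to 0.53) for *Rc3h1*. In the large classes the ratios of *Zfp36l1*, *Zfp36l2* and *Zc3h12c*, negative over all cells, were less even. *Zfp36l1* in LP4 over UI was -0.46 in cells of higher mitochondrial share and -0.002 (-0.07 to 0.07) in those of lower share. It was 0.09 (-0.12 to 0.30) in cycling cells and 0.08 (-0.07 to 0.23) in the Fgf13 gate, and below 0 in the other large classes. *Zc3h12c* was -1.12 in shallower and -0.50 in deeper cells, and *Zfp36l2* -0.10 and -0.58. *Zfp36l1* was lower in cycling cells than in others of each library, by 1.12 (UI), 0.79 (LP1) and 0.79 (LP4) on the log2 scale. Cycling cells were also deeper, with medians of 8345.5 against 4982 UMIs in UI and 20379 against 11392 in LP4. In deeper over shallower cells the log2 ratio of *Zfp36l1* was -1.06 (UI), -1.11 (LP1) and -1.28 (LP4). Cycling and depth were not separated here.

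Detection of the 7 mRNAs in the same cell was described at the fixed depth by the odds ratio, which is 1 for independent detection. Over the 21 pairs it had a median of 1.06 in UI, 1.04 in LP1 and 1.05 in LP4. The largest was that of *Zfp36l1* with *Zc3h12c* in UI and LP1, at 1.63 and 1.62, and it was 1.05 in LP4. *Zfp36l1* with *Zfp36l2* was the largest in LP4, at 1.47. A *Tnf* UMI was seen in 67.0% of UI cells with a *Zfp36l1* UMI and 73.0% of those without, in 74.3% and 80.3% in LP1, and in 27.3% and 32.0% in LP4. The odds ratio of *N4bp1* with *Tnf* was also under 1 in each library, at 0.75, 0.68 and 0.81. So was that of *Zfp36l2* with *Tnf*, at 0.919, 0.899 and 0.727. That of *Zc3h12c* with *Tnf* was above 1, at 1.18, 1.14 and 1.23. *Zfp36* with *Tnf* kept to no side of 1, at 0.93 in UI, 1.24 in LP1 and 1.02 in LP4. The odds ratios of *Zc3h12a* and *Rc3h1* with *Tnf* also lay on both sides of 1 between libraries. These are descriptions over cells of 1 library each and were not tested.

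Of the 5 relatives of the 7, 3 reached 10 CPM, and *Zc3h12d* and *Rc3h2* were higher in LP4 than in UI, as were 20.0% of all genes. *Zc3h12d* encodes Regnase-4 and stood at 21.8, 22.6 and 59.0 CPM, a log2 ratio of 1.44 in LP4 over UI. *Rc3h2* encodes Roquin-2 and stood at 29.3, 27.9 and 53.7 CPM, a ratio of 0.88. *Khnyn*, a relative of *N4bp1*, was at 10.8, 8.84 and 9.51 CPM. *Zc3h12b* stayed at or below 1.62 CPM, and *Zfp36l3* had 0 UMIs, with an upper bound of its exact Poisson interval of 0.103 CPM in UI and 0.0601 in LP4.

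Proteins of the *Zfp36* family hand their targets to deadenylases, decapping enzymes and exonucleases, while the Regnases cut theirs. Genes of these later steps were taken from lists. Of 18 measured deadenylation genes, 2 were higher and 0 lower in LP1 over UI, and 4 were higher and 2 lower in LP4 over UI, with a median ratio of 0.16. The higher ones at 4 h were *Btg1* (1.21), *Pabpc1* (1.04), *Cnot7* (0.88) and *Cnot6* (0.80), of which *Cnot7* and *Cnot6* encode catalytic subunits of the CCR4-NOT deadenylase. *Btg2*, an activator of deadenylation, was at 44.1, 85.2 and 12.2 CPM, high at 1 h and low at 4 h. *Tob2* was lower at 4 h, by -1.24.

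Of 21 measured decapping and exonuclease genes, 2 were higher at 1 h, and 5 were higher and 4 lower at 4 h, with a median of -0.04. The 5 were *Dcp2*, *Xrn1*, *Dcp1a* (1.61), *Lsm1* (1.51) and *Smg1* (0.98). *Dcp2*, the decapping enzyme, was at 19.95, 16.1 and 83.3 CPM, a ratio of 2.06. *Xrn1*, the 5′ to 3′ exonuclease, was at 53.8, 48.8 and 188 CPM, a ratio of 1.81. *Smg1* was on the list but encodes a kinase, neither a decapping enzyme nor an exonuclease. The 4 lower were *Exosc5* (-1.08), *Exosc4* (-0.76), *Exosc7* (-0.71) and *Exosc10* (-0.67), which encode subunits of the RNA exosome, an enzyme that degrades from the 3′ end. Other exosome genes that reached 10 CPM stayed under the fold, with *Exosc8* at -0.32, *Exosc1* at -0.17, *Dis3* at -0.07 and *Exosc9* at 0.09. *Exosc3*, at 5.27, 9.01 and 9.92 CPM, and *Exosc2* did not reach it and were not counted. Their ratios were 0.91 and 0.04. *Exosc7* was one of the 2 higher at 1 h, at 0.59, beside *Lsm1* at 1.32. The 4 h counts of this list and of the deadenylation list stand beside the 20.0% higher and 23.1% lower of all genes. Their 1 h counts stand beside 4.23% higher and 2.83% lower.

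Of 12 genes that control the decay factors, 1 was higher at 1 h, and 2 were higher and 1 lower at 4 h. Beside this count and that of the next list, 4.23% of all genes were higher and 2.83% lower at 1 h, and 20.0% and 23.1% at 4 h. *Dusp1*, which switches off the p38 pathway that holds tristetraprolin inactive, stood at 391, 598 and 165 CPM, so its order was unlike that of *Zfp36*. *Mapkapk2*, the kinase that phosphorylates tristetraprolin, was at 364, 373 and 462 CPM, and *Malt1*, the protease that cuts Regnase-1, Roquin and N4BP1, at 1298, 1428 and 1474. *Casp8*, which cuts N4BP1, was at 46.7, 50.2 and 96.0 CPM, a ratio of 1.04, and *Btrc* had one of 0.79. Among 7 other mRNA binders, a list labelled AU-rich binders that was not limited to such sites, 0 passed at 1 h and 2 were higher at 4 h. *Arid5a*, which shields *Il6* mRNA from Regnase-1, was at 19.7, 17.0 and 55.1 CPM, *Tia1* had a ratio of 0.87, and *Elavl1*, the stabilizer HuR, was at 60.9, 75.3 and 81.2 CPM.

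**Figure D5:**
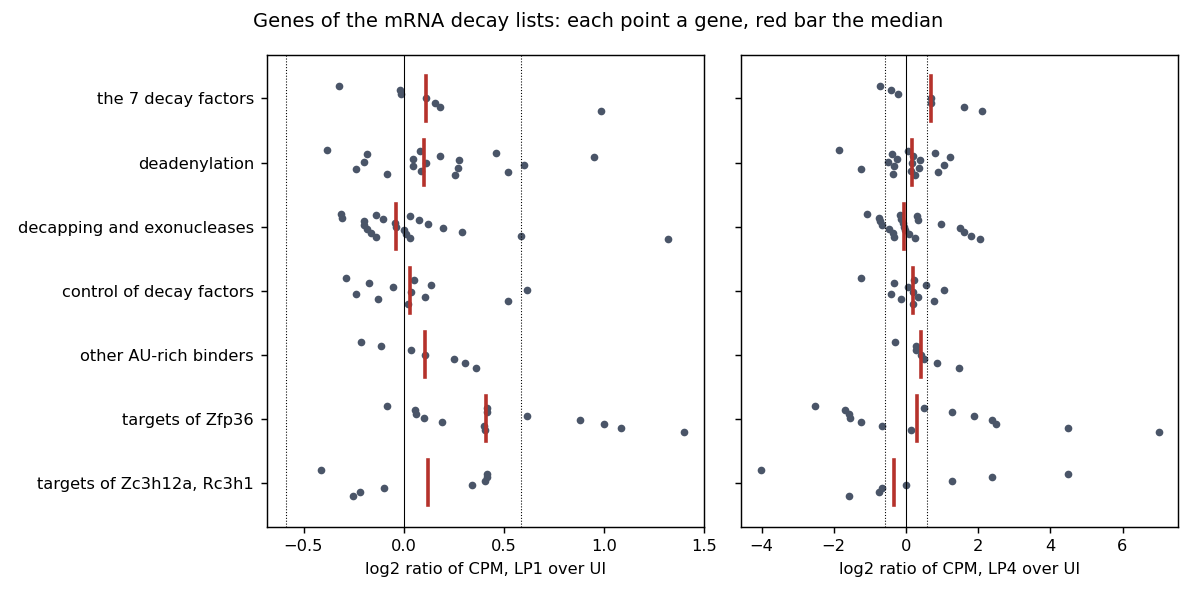
Log2 ratio of CPM in LP1 over UI (left) and LP4 over UI (right) for listed genes that reached 10 CPM, each point a gene, red bars the list medians and dotted lines 1.5-fold; the x axes differ in range. The medians at 4 h are 0.68 for the 7 decay factors, 0.16 for deadenylation, -0.04 for decapping and exonucleases and 0.31 for known targets of tristetraprolin, whose points lie on both sides of 0.

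Known targets of tristetraprolin went both ways at 4 h. Of 14 measured, 5 were higher and 0 lower in LP1 over UI, and 6 were higher and 6 lower in LP4 over UI, with medians of 0.41 and 0.31. Of all 8103 genes, 4.23% were higher and 2.83% lower in LP1 over UI, and 20.0% and 23.1% in LP4 over UI. *Tnf* stood at 840, 1119 and 280 CPM and *Cxcl2*, a neutrophil chemokine, at 4378, 4553 and 1489, so both were abundant in the control. Their ratios in LP4 over UI were -1.58 and -1.56. *Plk3* (-2.52), *Plk2* (-1.70), *Dusp1* (-1.24) and *Ier3* (-0.65) were also lower.

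The higher targets were *Cxcl3*, at 3.98, 8.44 and 509 CPM, *Il6* (4.50), *Ccl3* (2.50), *Ptgs2*, the prostaglandin synthase (2.38), *Ccl2* (1.88) and *Il1b* (1.26). *Cxcl1* was at 623, 1149 and 682 CPM and *Il10* at 100.3, 105 and 141. Of the 6 lower targets 5 held a nonamer, with 5 in *Tnf*, 4 in *Cxcl2*, 2 each in *Plk3* and *Dusp1*, and 1 in *Plk2*. Of the 6 higher targets 2 did, *Cxcl3* and *Ptgs2*, with 1 each. The list was chosen with results known, so this split is a description.

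Of 8 measured targets of Regnase-1 or Roquin-1, none passed the fold at 1 h, and 3 were higher and 4 lower at 4 h. The shares of all genes were 4.23% higher and 2.83% lower at 1 h, and 20.0% and 23.1% at 4 h. *Nfkbid* stood at 149, 112 and 9.17 CPM, a ratio of -4.02. *Tnf*, *Rel* (-0.75) and *Nfkbiz*, at 542, 686 and 343 CPM (-0.66), were the others below. *Lcn2* (1.26), *Ptgs2* and *Il6* were above, and *Tfrc* was at 127, 110 and 128 CPM. *Nfkbid*, *Nfkbiz* and *Tnf*, the mRNAs in the list with a hairpin of the form searched, were all among the lower, while *Rc3h1*, with 2, was higher. Of all 64 genes with a hairpin, 18 were higher and 16 lower in LP4 over UI.

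Over all genes, those with a nonamer were compared with those without. Of 648 genes with at least 1, 24.8% were higher and 17.9% lower in LP4 over UI by 1.5-fold, and of 7257 without, 19.5% and 22.97%. The medians were 0.07 and -0.08. Among the 147 genes with 2 or more, 17.7% were higher and 21.8% lower, so the larger share of higher genes lay with a single nonamer, at 26.9%. In LP1 over UI, 4.63% were higher and 0.617% lower with a nonamer, and 4.19% and 2.69% without. Genes with a nonamer had longer 3′ UTRs, at a median of 2503 against 1156 bases, and the part of length in these shares was not tested.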

How the data were processed

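RNA of single BMDMs was measured in 1 droplet library each for UI, LP1 and LP4 (10x Chromium 3′ v3.1). The authors deposited UMI counts per gene and barcode, made with Cell Ranger 7.1.0 per the file headers and the submitters' processing notes on the mouse mm10 transcriptome, without normalization. Whether intronic reads were counted is not given in the sources used here. Counts were whole numbers.

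Barcodes with over 500 UMIs, over 500 genes and under 5% UMIs of the 13 mitochondrial genes were kept, 99.2% (UI), 98.9% (LP1) and 92.7% (LP4). They numbered 15806 in all, more than the study kept after stating the same limits; what else it left out is not given in the sources used here. Barcode sequences shared by libraries numbered 10 (UI and LP1), 7 (UI and LP4) and 4 (LP1 and LP4). No doublet caller was run, and an alternative left out the 5% deepest cells. Counts were summed, scaled to CPM and compared with exact intervals. Genes at least 1.5-fold apart were called, among those with at least 10 CPM in 1 library. Cells were thinned with a seed of 20. Gates used markers alone. Neutrophil-like cells needed 20 marker UMIs, dendritic and stromal ones 5, lymphocytes 2, and cycling cells 3 of 6 markers seen, limits set after the data were seen.

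The genes, lists and markers were chosen with earlier results of these data known. Genes named were the 7, list genes and, for each of the 7, the 3 nearest in log2 ratio among genes with at least 50 CPM that are not mitochondrial, ribosomal or unnamed. Known targets come from textbook knowledge. 3′ UTRs and positions are from GENCODE vM21 (GRCm38), promoter windows from RefSeq (GRCm38.p6), which matched 6 of the 7. Intervals used scipy 1.17.1 and numpy 2.4.6 under Python 3.11.15, tables pandas 2.3.3, plots matplotlib 3.10.9, and TMM factors alone edgeR 4.0.16 (R 4.3.3). Ratios were tested on simulated data. Alternatives were other cell limits and scalings, means of cell shares, removal of other cell types, cycling or deep cells and shared barcodes, thinning, a 2-fold limit and no minimum. Gates within depth were added after seeing the data.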

Additional observations from a re-analysis of the deposited data

Results flagged for a closer look

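The log2 ratios of 4 decay factors had opposite signs at 1 h and 4 h of *Bb*LP, each beyond counting error. Those of *Zc3h12a* and *Rc3h1* also differed in sign, but their 1 h ratios, -0.01 and -0.02, had intervals that held 0. The change from the 1 h ratio to the 4 h ratio was -0.41 for *Zfp36l1*, -0.57 for *Zfp36l2*, -0.83 for *Zc3h12c* and 1.93 for *N4bp1*. Both ratios share the UI library and each group is 1 library, so the difference was not tested. The sign held under the 12 alternative settings for these 4 genes at both times, and the ratio of *Zfp36l1* at 4 h came to -0.02 under median-of-ratios scaling.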

How the results depend on the processing

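No ratio past 1.5-fold changed sign under the 12 alternative settings, and no count of decay factors past that fold changed when other cell types, cycling cells, the deepest cells, shared barcodes or the mitochondrial limit were left out. With a 2-fold limit the counts of decay factors were 0 higher in LP1 over UI, 2 higher and 0 lower in LP4 over UI, and 2 higher and 0 lower in LP4 over LP1. TMM and median-of-ratios scaling gave 0 lower in LP4 over UI, where the median of all genes moved from -0.08 to 0.09 and 0.13 and *Zc3h12c* came to -0.51 under the latter. Of all genes at the 2-fold limit, 0.765% were higher and 0.506% lower in LP1 over UI, 10.5% and 9.95% in LP4 over UI, and 8.59% and 7.75% in LP4 over LP1. With no minimum level, 1.5-fold was passed by 15.0% and 19.0%, 25.9% and 36.1%, and 25.5% and 29.5%. Of 252 ratios, 192 stayed within the counting interval, and of 42 gate differences taken within shallower or deeper cells, an alternative chosen after seeing the data, 20 did. The near-zero ratios of *Zc3h12a* and *Rc3h1* in LP1 over UI changed sign under 5 and 3 settings. Of 105 shares of cells, 63 moved beyond their interval under other depths of thinning or other cells. A share rises with the number of UMIs drawn, so another depth gives another share. *Zfp36* was seen in 10.1% of UI cells at 1000 UMIs, 17.9% at 2000, 28.8% at 4000 and 39.5% unthinned. No paired analysis was possible because each group has 1 library. With 1 library per group, depth limits counting error only.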
